A study of Mus musculus with 12 samples.

Results

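Of 112047 autosomal regions of accessible chromatin in mouse macrophages, 253 were called in nearly all libraries of one lincRNA-EPS genotype and in almost none of the other. They comprise 75 KO-skewed regions, which is 0.0669% of the autosomal regions, and 178 WT-skewed regions, which is 0.159%. The members were chosen by their calls alone. Overlapping peaks of all 12 libraries were chained into regions, and a region was kept when at least 5 of the 6 libraries of one genotype called it and at most 1 of the 6 libraries of the other did. Because the calls chose the members, the genotype difference in calls is a description and has no test.

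LincRNA-EPS is a long noncoding RNA that is listed in the RefSeq annotation as Ttc39aos1 on chromosome 4. The study's title names it as a brake on inflammatory transcription. Lipopolysaccharide (LPS), shed from the envelope of Gram-negative bacteria, is sensed by Toll-like receptor 4 on macrophages, and nucleosomes are then displaced at many enhancers and promoters of inflammatory genes. ATAC-seq reports such open DNA, because the Tn5 transposase inserts sequencing adapters where the DNA is not wrapped in nucleosomes. The comparison asks which regions were called mainly in one genotype across the times before and after LPS.

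The 6 groups were lincRNA-EPS KO macrophages with 100 ng/ml LPS for 0, 2 and 6 h, and wild-type (WT) macrophages at the same 3 times, with 2 libraries each. All came from bone marrow of female C57BL/6 mice and were grown for 9 days with 20% L929 supplement, a source of macrophage growth factor, and each transposition used 50000 cells. The labels do not state the extent of the deleted segment, nor whether replicates are different mice. An mm9 genome and gene annotation were not used here, so regions are given by mm9 position without gene names or sequence, and the macrophage label was not checked against marker genes.

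The lists held 54771 to 91610 peaks. Background coverage, the lowest local background of a library as recovered from the deposited values, was 1.43 reads in KO 0 h replicate 2 and 1.77 in KO 0 h replicate 1, and 2.17 to 3.35 in the other 10 libraries. Presence in a list depends on this depth, and fewer open cells cannot be told apart from less open chromatin per cell. Peak names inside the 4 lists labelled 2 h read 1 h, a conflict that was not settled. With those 4 libraries left out, and with a call demanded in each of the 4 remaining libraries of a genotype and in none of its counterpart, 16 KO-skewed and 60 WT-skewed regions were found, of which 7 and 34 overlapped a member of the same direction.

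Most regions were shared by the genotypes. All 12 libraries called 41745 autosomal regions. Among the 3908 regions called in exactly 6 libraries, 61 (1.56%) were KO-skewed and 132 (3.38%) were WT-skewed, while 1862 were called in 3 libraries of each genotype. WT libraries were in the majority more often in such regions, with 876 called in more KO than WT libraries and 1170 called in more WT than KO libraries. The pattern was complete, with 6 of 6 libraries against 0 of 6, at 1 KO region (0.000892% of autosomal regions) and 10 WT regions (0.00892%).

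**Figure D1:**
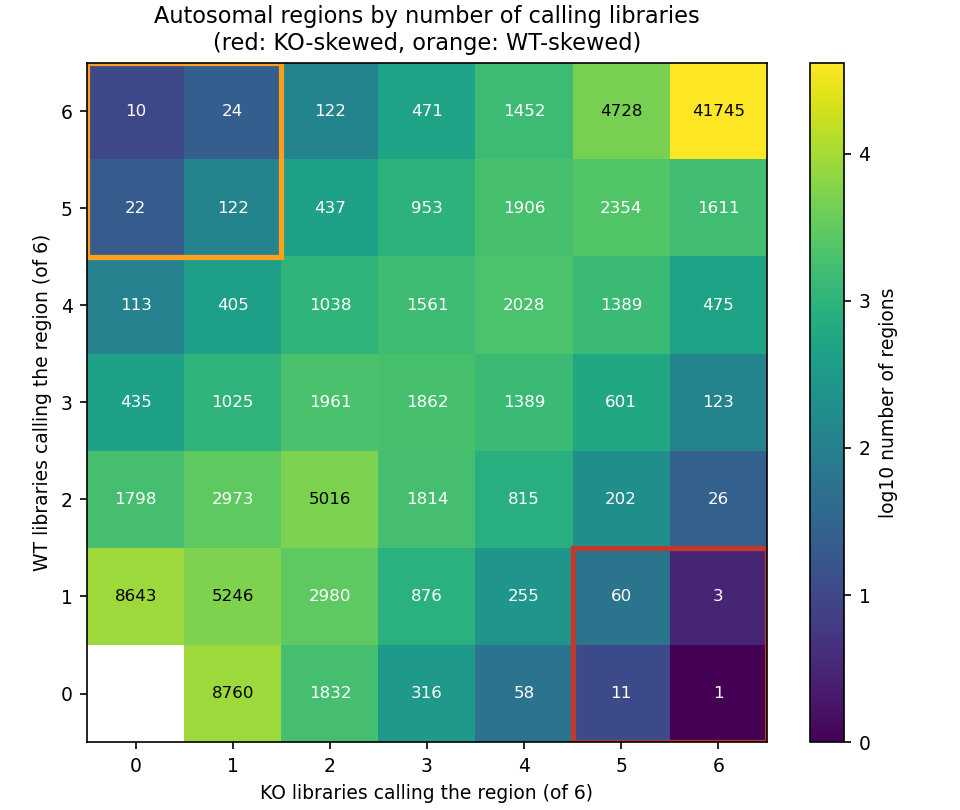
Number of autosomal regions by how many of the 6 KO libraries (horizontal axis) and of the 6 WT libraries (vertical axis) called them, coloured by log10 of the number, with the KO-skewed and WT-skewed fields outlined. Counts fall away from the field of 41745 regions called in all 12 libraries, and the outlined fields hold 75 KO-skewed and 178 WT-skewed regions, mostly with 5 calls against 1.

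The skew was seldom complete at all 3 times. Of the 75 KO-skewed regions, 60 were called in 5 KO and 1 WT libraries, 11 in 5 and 0, 3 in 6 and 1, and 1 in 6 and 0. Of the 178 WT-skewed regions, 122 had 1 KO and 5 WT calls, 22 had 0 and 5, 24 had 1 and 6, and 10 had 0 and 6. Within a time, both KO and neither WT library called 18 of the KO-skewed regions at 0 h, 44 at 2 h and 38 at 6 h. Neither KO and both WT libraries called 104 of the WT-skewed regions at 0 h, 105 at 2 h and 64 at 6 h. KO libraries missed 53, 13 and 5 calls at KO-skewed regions at 0, 2 and 6 h, while WT libraries made 8, 22 and 33 calls there. These counts come from the calls that chose the members.

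Among KO libraries, the calls that broke the pattern were most frequent in the shallowest and the deepest. KO libraries missed 71 calls at KO-skewed regions, of which 41 were in KO 0 h replicate 2, 12 in KO 0 h replicate 1 and 2 to 8 in each of the other 4. KO libraries made 146 calls at WT-skewed regions, of which 71 were in KO 6 h replicate 1, the library with the highest background coverage (3.35 reads), and 6 to 28 in each of the others. WT libraries were more even. They made 63 calls at KO-skewed regions, 4 to 21 per library, and missed 144 at WT-skewed regions, 12 to 35 per library. Background coverage did not order these counts throughout. WT 2 h replicate 1, with the highest WT background (3.03 reads), missed the fewest, 12, but WT 6 h replicate 2, with the lowest (2.18 reads), made the most calls at KO-skewed regions, 21, and missed 22. The most, 35, were missed by WT 0 h replicate 2, at 2.51 reads. List lengths differed as well. KO 0 h replicate 2 and KO 6 h replicate 1 had the shortest and longest lists, 54771 and 91610 peaks. WT 6 h replicate 2 had the longest WT list, 85169 peaks. WT 0 h replicates 1 and 2 had the shortest WT lists, 67128 and 66885 peaks, and made 4 calls each at KO-skewed regions. List length did not order all counts either, as WT 6 h replicate 1, with 81749 peaks, missed 26. The parts of depth and list length in these counts were not tested.

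**Figure D2:**
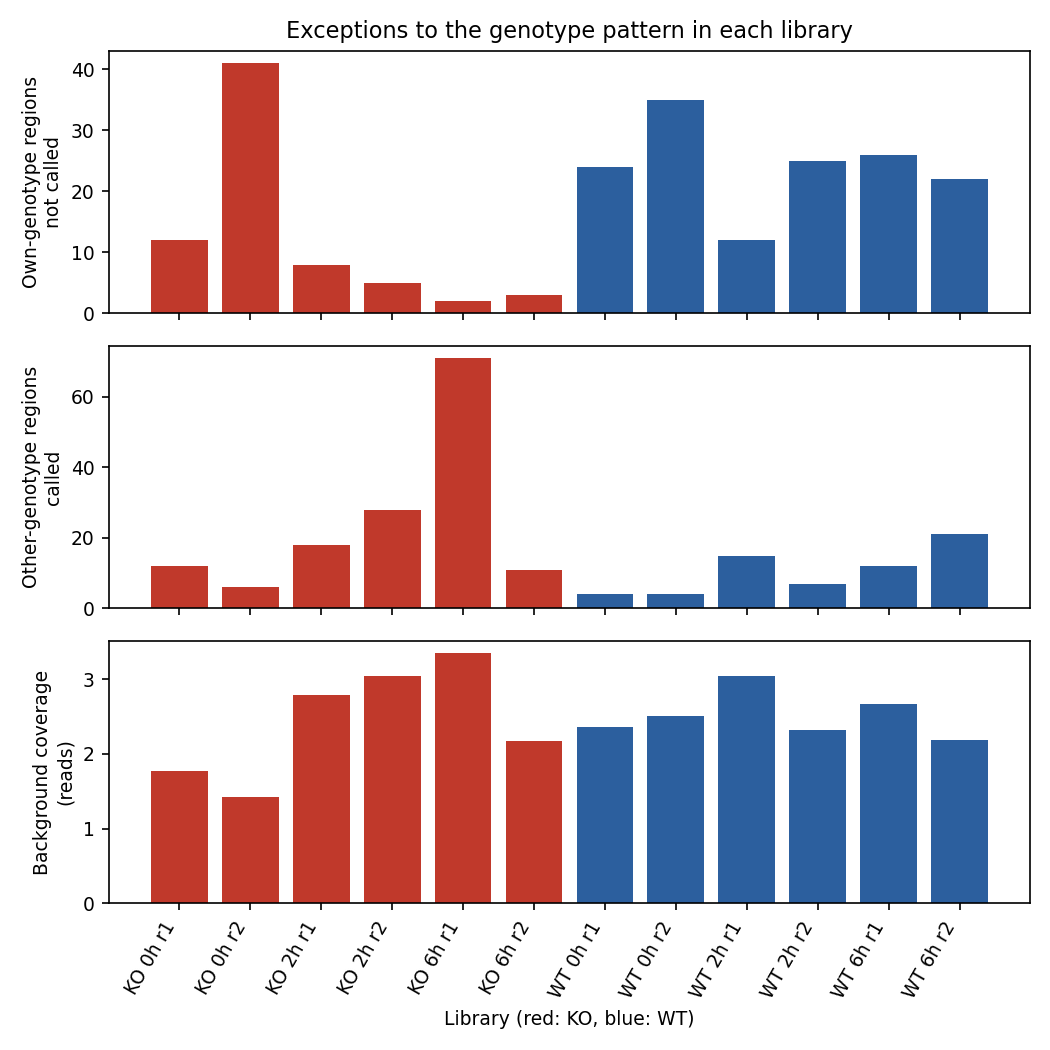
For each library, KO on the left and WT on the right, the number of regions skewed to its own genotype that it did not call (top), the number skewed to the other genotype that it called (middle) and its background coverage in reads (bottom). KO 0 h replicate 2, with 1.43 reads, missed 41 regions, and KO 6 h replicate 1, with 3.35 reads, called 71 WT-skewed regions.

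Both skewed groups consisted mainly of weak, narrow regions. The percentile of a peak's −log10 q within its own list, averaged over the calling libraries of the genotype, had a median of 17.4 for KO-skewed and 17.9 for WT-skewed regions. For the comparison sets it was averaged over the calling libraries of both genotypes. Its median was 20.8 for 10440 regions called in 5 to 7 libraries and evenly split between the genotypes (2 to 4 of each). For regions called in all 12 it was 68.6. Mean percentiles under 25 were found for 60 of 75 KO-skewed (80.0%) and 150 of 178 WT-skewed regions (84.3%), against 67.4% of evenly split regions and 0.865% of regions called in all 12. No KO-skewed region and 3 WT-skewed regions reached a mean percentile of 50. Within a member the percentile varied among its calling libraries with a median SD of 11.3 in KO-skewed and 11.0 in WT-skewed regions.

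Width and position added the same picture. The median region width was 453 bp in KO-skewed and 424.5 bp in WT-skewed regions, near the 438 bp of evenly split regions and below the 775 bp of regions called in all 12. The calling rule did not use the summit, the base of highest coverage in a peak. Among the calling libraries used for the percentile, the summits lay a median of 25 bp from their middle position in both skewed groups. This was near evenly split regions (26 bp) and slightly wider than regions called in all 12 (19 bp). A deviation of 50 bp or less was found at 62 of 75 KO-skewed (82.7%) and 140 of 178 WT-skewed regions (78.7%), against 82.6% of evenly split regions and 89.5% of regions called in all 12.

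Few members lay near a region shared by all libraries. A region called in all 12 stood within 5000 bp of 13 of 75 KO-skewed (17.3%) and 46 of 178 WT-skewed regions (25.8%), compared with 33.6% of evenly split regions. The median distance to such a region was 12288 bp for KO-skewed, 11204 bp for WT-skewed and 8986 bp for evenly split regions. A region called in 5 or 6 libraries of the other genotype stood within 500 bp of 2 KO-skewed and 12 WT-skewed members, where a shifted border between neighbouring peaks could not be told from a missing peak.

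The KO-skewed regions had no dominant member. The highest-ranked, at chr17:6475541-6476659, was called in all 6 KO libraries and in WT 0 h replicate 1. Its fold, as the authors deposited it, was 5.13 and 6.80 in KO at 0 h, 6.88 and 6.00 at 2 h and 5.70 and 6.82 at 6 h, against 4.77 in the 1 WT library with a call. The deposited fold matched summit coverage over local background with 1 added to both. The added 1 lowers the fold most where background coverage is low. This region is 1119 bp wide, and its summits scattered by a median of 331 bp, the widest of the KO-skewed regions, so different libraries peaked at different places within it. The 9 that followed had mean percentiles of 28.6 to 34.9. They lay at chr13:111417803-111418264, chr13:114747605-114748091, chr16:98155055-98155500, chr2:35680953-35681420, chr15:60693937-60694413, chr4:151586669-151587065, chr19:58703780-58704264, chr12:27116761-27117235 and chr16:33481175-33481597.

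Each of those 9 was also called in 1 WT library, which was WT 6 h replicate 1 or replicate 2 in every case. At chr13:114747605-114748091 the fold was 6.18 in KO 0 h replicate 2, 4.22 and 4.70 in KO at 2 h and 8.745 and 8.51 in KO at 6 h, against 5.45 in WT 6 h replicate 1. At chr12:27116761-27117235, called in all 6 KO libraries, the fold was 6.49 and 5.36 at 0 h, 6.60 and 4.20 at 2 h and 7.36 and 5.67 at 6 h, against 4.40 in WT 6 h replicate 2. The WT values lay inside the range of the KO values in both, as at chr2:35680953-35681420 and chr15:60693937-60694413. At chr13:111417803-111418264, chr16:98155055-98155500, chr4:151586669-151587065 and chr16:33481175-33481597 the WT fold, 4.07 to 4.40, lay below every KO fold of the region. At chr19:58703780-58704264 the WT fold, 6.89, lay above every KO fold, the highest being 6.86. A fold depends on depth and exists only where a library had a call. Orderings of folds between libraries, here and elsewhere, are therefore not read as differences in accessibility. The only KO region with a complete pattern, chr10:5989573-5990314, was among the weakest. Its fold was 5.41 and 4.40 in KO at 0 h, 5.01 and 3.46 at 2 h and 3.91 and 5.99 at 6 h, with a mean percentile of 13.1 ± 12.6 (SD, n = 6 libraries) and summits that differed by a median of 107.5 bp.

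**Figure D3:**
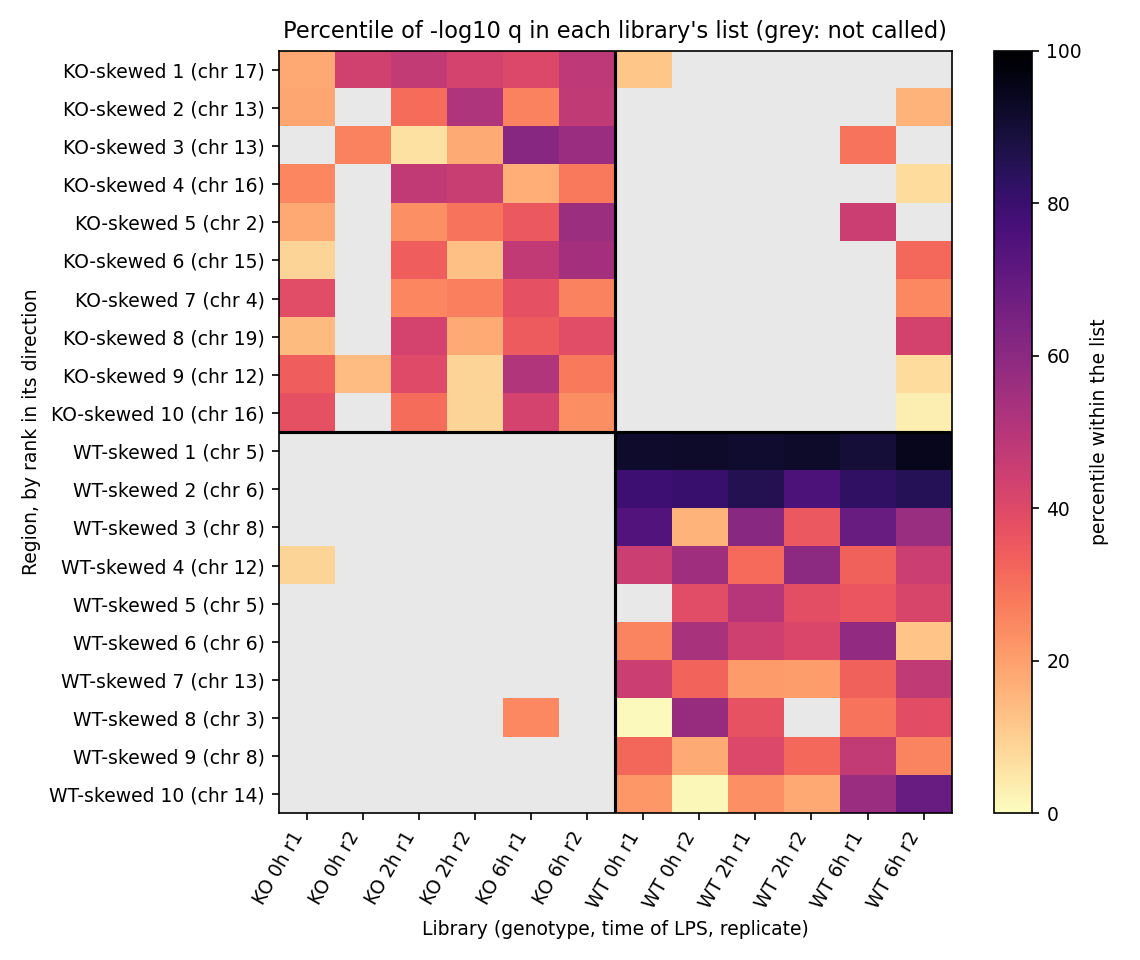
Percentile of −log10 q within each library's list (colour, 0 to 100) for the 10 highest-ranked KO-skewed (top) and WT-skewed regions (bottom), with KO libraries on the left and WT libraries on the right and grey where a library has no call. The first 2 WT-skewed regions are dark in every WT library, at mean percentiles of 91.8 and 81.3, whereas all other rows are paler and vary from library to library.

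The WT-skewed regions, in contrast, had a few strong members. At chr5:110425056-110426057 there was no call in 6 KO libraries, and the fold was 13.3 and 13.1 in WT at 0 h, 13.3 and 13.5 at 2 h and 10.2 and 12.1 at 6 h. Coverage at the summit was 78 to 91 reads in the 6 WT libraries. At chr6:144865533-144866152, again with no KO call, the WT folds were 12.04 and 10.9 at 0 h, 13.7 and 11.4 at 2 h and 11.7 and 12.4 at 6 h, with 50 to 70 reads at the summit. At the first region both values at 6 h lay below all 4 earlier ones, and at the second the values of the 3 times overlapped.

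The next WT-skewed regions varied more between libraries. At chr8:115450629-115451309 the WT folds were 11.8 and 4.85 at 0 h, 9.42 and 6.63 at 2 h and 9.56 and 8.80 at 6 h, with 16 to 43 reads at the summit and no KO call. At chr12:20821333-20821933 KO 0 h replicate 1 had a call with a fold of 4.69, against 7.46 and 8.56 in WT at 0 h, 5.70 and 9.94 at 2 h and 5.72 and 7.23 at 6 h. Replicates of one time differed here by as much as the times did. The region at chr5:136917468-136917864 was missed by WT 0 h replicate 1 and had folds of 5.99 to 7.68 in the other 5 WT libraries. At chr6:3376876-3377538 all 6 WT libraries had a call, with folds of 4.71 to 8.45. The remaining 4 of the 10 highest-ranked, chr13:88802257-88802753, chr3:58852068-58852519, chr8:126156943-126157297 and chr14:70041657-70042432, had mean percentiles of 31.5 to 33.2. Further WT regions with a complete pattern were weaker, at chr18:60765686-60766071, chr19:45298580-45298939 and chr14:70079032-70079442, with mean percentiles of 21.1, 18.5 and 13.5.

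How much weaker a region would have to be to go uncalled was estimated from the coverage. The summit coverage over background in the calling libraries was scaled to the background of each library without a call, and divided by the coverage that library would have needed at its least significant deposited p. Values just above 1 mean that a small shortfall suffices to lose the call. The calling libraries enter because they called the region, which biases the scaled values upwards. The lowest such ratio of a member had a median of 1.49 for KO-skewed and 1.19 for WT-skewed regions, and the libraries without a call differ between the directions, since the shallow KO 0 h libraries count only for WT-skewed regions. It was below 1 in none of the KO-skewed and 4 of the WT-skewed regions. At least 2 times the limit in every library without a call was reached by 1 KO-skewed region, chr17:6475541-6476659, with 2.08 to 2.39.

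The same was reached by 3 WT-skewed regions. At chr5:110425056-110426057 the WT level scaled to 47.9 to 112 reads in the 6 KO libraries, where 12 to 20 reads would have sufficed for a call, a ratio of 3.99 to 5.62. At chr6:144865533-144866152 the scaled coverage was 32.2 to 75.5 reads against a need of 10 to 15, a ratio of 3.22 to 5.03. At chr8:115450629-115451309 the ratio was 2.15 to 3.37. The ratio was highest in the deepest KO library, KO 6 h replicate 1, at all 3. This follows largely from the calculation, because scaled coverage rises in proportion to background and the calling limit rises more slowly.

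**Figure D4:**
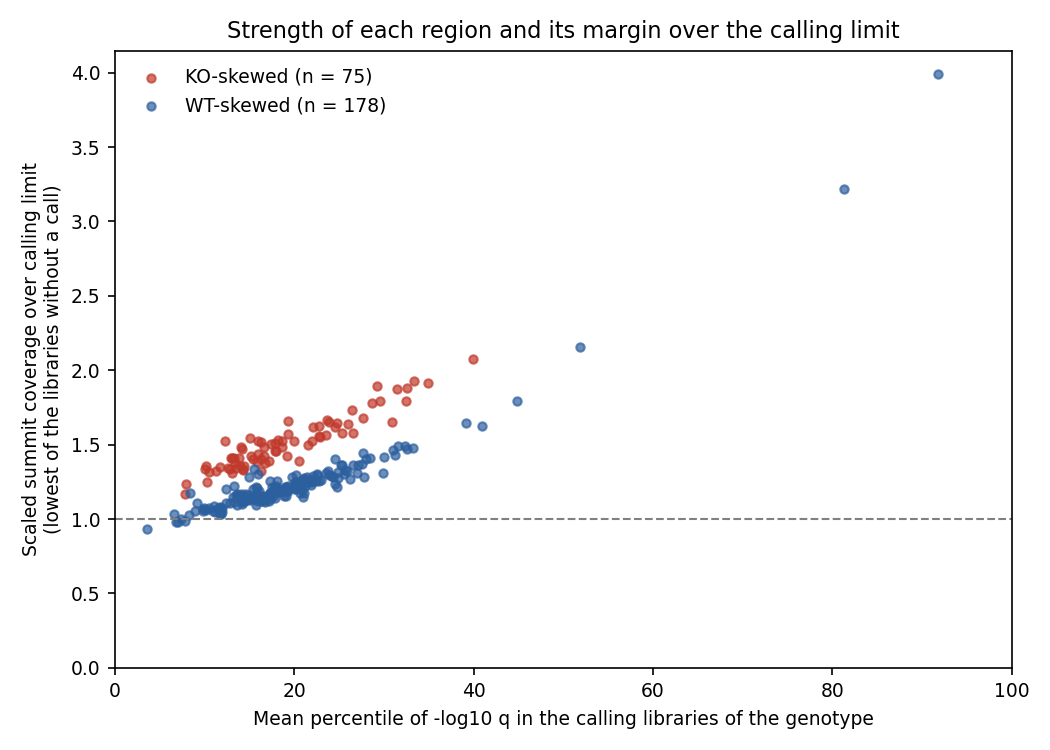
Each member's mean percentile of −log10 q (horizontal axis) and the lowest ratio of scaled summit coverage to the calling limit among the libraries without a call (vertical axis, dashed line at 1). Of the 253 regions, 4 lie at or above a ratio of 2, with WT-skewed regions at 3.99, 3.22 and 2.15 and a KO-skewed region at 2.08, while most lie between 1 and 1.5.

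Chromosome 4, which carries the deleted gene, held 4 of the 75 KO-skewed (5.33%) and 11 of the 178 WT-skewed regions (6.18%), close to its 5.83% share of all autosomal regions. The KO-skewed region at chr4:109073844-109074543 was called in 5 KO libraries and no WT library. Its fold was 5.0 in KO 0 h replicate 1, 4.48 and 4.30 in KO at 2 h and 5.14 and 5.37 in KO at 6 h, and only the shallow KO 0 h replicate 2 had no call. Its level scaled to 1.58 to 1.91 times the calling limit in the WT libraries. Of 6 other regions within 20 kb, 2 were called in all 12 libraries, the nearer at a gap of 3914 bp, none was called in WT alone and 2 were called in 1 KO library each. Its distance to lincRNA-EPS was not determined, because gene positions of mm9 were not used.

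The other KO-skewed regions of chromosome 4 were chr4:151586669-151587065, chr4:133399049-133399526 and chr4:155195087-155195542. The first of these stood 1077 bp from a region called in all 12 libraries and had KO folds of 4.22 to 5.85 against 4.07 in WT 6 h replicate 2. The WT-skewed regions there were chr4:122951561-122951984, chr4:132643286-132644063, chr4:8012076-8012542, chr4:128484101-128484539, chr4:131726835-131727202, chr4:136931970-136932410, chr4:43543460-43543848, chr4:141277086-141277392, chr4:130165281-130165817, chr4:151608323-151608717 and chr4:8357522-8358428. Their mean percentiles were 11.7 to 25.7, and none was called in 0 KO and 6 WT libraries. Across chromosomes, KO-skewed regions made up 0.0180% (chromosome 8) to 0.161% (chromosome 13) of the regions, and WT-skewed regions 0.0587% (chromosome 19) to 0.286% (chromosome 12).

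Some members had a neighbour of the same direction. Within 100 kb of another were 2 of 75 KO-skewed regions (2.67%), at chr18:38318884-38319287 and chr18:38393019-38393434, and 12 of 178 WT-skewed regions (6.74%) in 6 pairs. The share for other sets of as many regions was not determined, so these counts do not show whether members cluster or scatter. The closest pair, chr12:59314510-59315360 and chr12:59315408-59315977, has a gap of 47 bp. The other pairs were chr14:70041657-70042432 with chr14:70079032-70079442, chr3:58852068-58852519 with chr3:58872904-58873367, chr2:165143435-165143787 with chr2:165186443-165186858, chr1:74940021-74940397 with chr1:74994531-74994943 and chr12:35591304-35592093 with chr12:35676541-35676929. The chromosome 14 pair was complete, with 0 KO and 6 WT calls at both regions.

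Around the complete WT regions of chromosomes 8 and 14 the neighbouring regions were also called in WT alone, a pattern looked for after those members had been seen. From chr8:115389656-115620664, 231009 bp, there were 11 regions in a row with 25 WT calls and no KO call. From chr14:70041657-70090466, 48810 bp, there were 10 in a row with 23 WT calls and no KO call. No other run of regions called in one genotype alone held over 10 calls, in KO or WT, and the longest KO-only run had 6 regions. Only 1 of the 11 regions on chromosome 8 and 2 of the 10 on chromosome 14 were members, and most of the others were called in 1 or 2 WT libraries. The totals of 25 and 23 include 6 calls from each of these members. The rule used those calls, so the totals are no separate support for the pattern.

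The chromosome 8 stretch was called unevenly by the WT libraries. WT 6 h replicate 1 called 9 of its 11 regions, WT 2 h replicate 1 called 6, WT 0 h replicate 1 called 5, WT 6 h replicate 2 called 3, and WT 0 h and 2 h replicate 2 called 1 each. Replicate 1 thus called more of them than replicate 2 at each time. Its flanking regions, chr8:114820962-114821595 and chr8:115670624-115671261, were called in 5 and 2 KO libraries and in 6 and 4 WT libraries. On chromosome 14, WT 6 h replicate 2 called 7 of the 10, WT 6 h replicate 1 called 6, WT 2 h replicate 2 called 4 and the other WT libraries called 2 each. The regions flanking the chromosome 14 stretch, chr14:70032737-70033419 and chr14:70096886-70097226, were called in 4 and 1 KO libraries and in 5 and 2 WT libraries. A region called in all 12 libraries stood 11928 bp from chr14:70041657-70042432. The local background of the peaks in the chromosome 14 stretch was 1.30 to 2.38 times the library's background, against 1.0 to 1.10 times on chromosome 8.

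**Figure D5:**
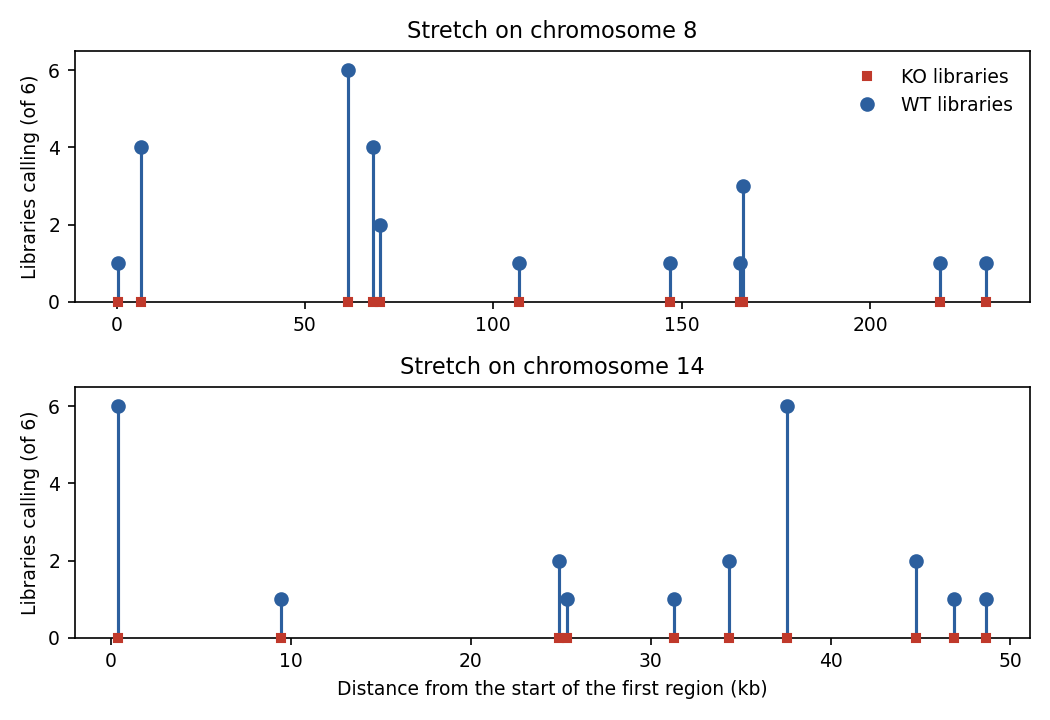
Number of KO libraries (red) and WT libraries (blue) calling each region along the stretches on chromosome 8 (11 regions) and chromosome 14 (10 regions), by distance in kb from the first region. No KO library called any of these regions, and all 6 WT libraries called 1 on chromosome 8 and 2 on chromosome 14.

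The rule cuts through a continuous range. Just inside it, the 60 KO-skewed regions with 5 KO and 1 WT calls had a median mean percentile of 17.8, and the 122 WT-skewed regions with 1 KO and 5 WT calls one of 17.3. Just outside, 202 regions with 5 KO and 2 WT calls had 20.5, and 437 regions with 2 KO and 5 WT calls had 19.2. At the other edge, 58 regions with 4 KO and 0 WT calls had 13.6 and 255 with 4 KO and 1 WT calls had 17.9. In the WT direction, 113 regions with 0 KO and 4 WT calls had 15.0 and 405 with 1 KO and 4 WT calls had 16.5. The strongest just outside in the KO direction were chr2:49447446-49448330 at 42.4, chr13:109192564-109193845 at 41.9 and chr14:72963698-72964247 at 40.5, all with 5 KO and 2 WT calls. In the WT direction they were chr6:46230839-46231411 at 50.9, with 2 KO and 6 WT calls, chr5:133777229-133777776 at 48.5, with 1 KO and 4 WT calls, and chr15:55637650-55638260 at 46.9, with 2 KO and 5 WT calls. All of these exceed most members in strength.

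Membership depended on how weak peaks were treated, more than the number of regions that met the rule did. Among peaks with a −log10 q of 5 or more, 73 KO-skewed and 156 WT-skewed regions met the rule, of which 30 and 82 overlapped a member. In lists thinned to the background of the shallowest library the numbers were 83 and 227, with 18 and 66 overlapping a member. With the same number of peaks in each list, the strongest 54771, they were 87 and 139, with 1 and 6 overlapping a member. The members that met the rule in all 3 settings were chr17:6475541-6476659 among KO-skewed regions and the 6 highest-ranked WT-skewed regions. In none of the 3 did 38 KO-skewed and 77 WT-skewed regions meet it. The rank and the cut at 5 both use −log10 q, and all 3 settings remove weak peaks. High-ranked members were thus favoured by construction, so their retention is no separate support for them.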

How the data were processed

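The submitters' processing notes name Bowtie2 2.1.0, Picard, MACS2 and mm9, and peak names in the deposited lists show that peaks were called on each library alone. How duplicates, the Tn5 offset and calling settings were handled is not stated in the labels. The deposited lists give per peak a fold ratio of summit to local background, the −log10 of p-values and of q-values, a score of 10 times the −log10 q, and the summit position. They are the authors' own values and were used to describe and rank peaks within a list.

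From these, 886143 peaks were chained at 1 bp overlap into 115231 regions, scored as called or not in 12 libraries. Members, named regions and comparison sets were chosen with earlier results of these data known. Named regions are the 10 highest-ranked of each direction by mean percentile of −log10 q, those with complete patterns, on chromosome 4, or within 100 kb of a member of the same direction, and the 3 strongest just outside the rule. Summit coverage was solved from fold and Poisson p as a whole number, which matched 100% of peaks within 0.001 on the log10 scale. Thinning drew each summit at random by the ratio of backgrounds and kept a −log10 p of 4.28 or more. Read numbers are not given, so depth is known only as background coverage, and calls carry no interval. No test of genotype was made. Counting was tested on simulated calls. Python 3.11.15, numpy 2.4.6, pandas 2.3.3, scipy 1.17.1 and matplotlib 3.10.9 were used.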

Additional observations from a re-analysis of the deposited data

Results flagged for a closer look

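In 17 sets of 6 libraries compared (exceptions and background coverage per genotype, and the fold at each complete region), 2 libraries stood far from the other libraries of their genotype. Chance flags about 1 in 20 groups, but that rate cannot be applied to either, because both counts come from the calls that chose the members. KO 0 h replicate 2 missed 41 of the 75 KO-skewed regions, against 2 to 12 in the other KO libraries. KO 6 h replicate 1 called 71 of the 178 WT-skewed regions, against 6 to 28 in the other KO libraries. Their background coverages were the lowest and the highest of the 12, at 1.43 and 3.35 reads. Their lists were also the shortest and the longest, at 54771 and 91610 peaks.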

How the results depend on the processing

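Chaining at a larger overlap (50% of the shorter peak), a −log10 q of 5 or more, equal list lengths, thinning and inclusion of the X chromosome left both counts within 1.5 times of 75 KO-skewed and 178 WT-skewed regions (73 to 87 and 139 to 227). Complete patterns gave 1 and 10 regions, and at least 4 against at most 2 libraries gave 1431 and 2293. Without the libraries labelled 2 h, the rule of at least 3 of 4 against at most 1 of 4 gave 1002 and 1985, and 4 of 4 against 0 of 4, chosen after the data were examined, gave 16 and 60. Leaving out 1 library, with 1 missing and 1 extra call still allowed, loosens the rule by construction and gave 107 to 304 KO-skewed and 208 to 589 WT-skewed regions. The KO-skewed count moved by over 1.5 times for each library left out except KO 6 h replicate 1 and WT 0 h replicate 2. The highest came without KO 0 h replicate 2, where 304 KO-skewed regions outnumbered 208 WT-skewed regions. WT-skewed regions were the more numerous for each other library left out, with 226 KO-skewed and 267 WT-skewed without KO 0 h replicate 1. The WT-skewed count moved by over 1.5 times for each except KO 0 h replicates 1 and 2 and WT 2 h replicate 1, and was highest without KO 6 h replicate 1. Among the 49 named regions, the 6 alternatives that neither loosen the rule nor add regions gave 131 recounts that met the rule and 155 that did not, beside 8 regions with no overlapping region in the equal lists. No recount changed direction. No paired analysis was possible because the results come from no test, so there is no fit in which the replicate number could be a block. Depth limits absences of weak regions most, since a region without a call may be open below the calling limit.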
